A study of Mus musculus with 2 samples.

Results

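Thick ascending limb nuclei on the Sgcz side are 573 of the 6383 barcodes in these data, 307 from the sham library and 266 from the nephrectomy library. They were chosen by their own UMI counts (UMI, unique molecular identifier, 1 count per captured RNA molecule). A barcode had to hold at least 1000 UMIs, at most 10% of them from mitochondrial genes. Slc12a1, Umod, Ptger3 and Erbb4 together had to make up at least 0.3% of its UMIs, and Slc12a1 had to exceed Slc12a3, the marker of the distal convoluted tubule. The proximal tubule transporters Slc34a1, Slc13a1 and Slc5a12 together could make up at most 0.1%. Among the 719 nuclei that met these limits, Sgcz and Cacnb4 had to have more UMIs in sum than Enox1 and Nrxn3. The reverse held in 108 nuclei, called the Enox1 side below, and 38 nuclei had equal sums.

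The mice were male, of the genotype written T1+/+, and 11 weeks old at surgery, in both groups. In the 5/6 nephrectomy group the right kidney was taken out, and the poles of the left kidney were tied off a week later. In the sham group both flanks were opened and closed with the kidneys left in place. Kidneys were collected 4 weeks after surgery and frozen, and nuclei were captured in droplets on the Chromium system. There was 1 library per group, so no difference below has a replicate check, and none has a p-value. The labels do not say how many mice went into a library or which zone of the kidney was used. Intervals are exact 95% intervals (Poisson for levels, conditional binomial for ratios, Clopper-Pearson for shares) and cover counting error only.

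The thick ascending limb reabsorbs sodium chloride while holding water back, which dilutes the urine and feeds the concentrating mechanism of the medulla. NKCC2, the product of Slc12a1, brings in sodium, potassium and chloride from the lumen. ROMK (Kcnj1) returns the potassium to the lumen, chloride leaves on the blood side, and the sodium pump drives the whole. The lumen-positive voltage that results pushes calcium and magnesium between the cells, through pores made of claudins. The segment also secretes uromodulin and epidermal growth factor and is rich in mitochondria. Sgcz encodes zeta-sarcoglycan and Cacnb4 a calcium channel beta subunit.

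The 12 genes of the rule are given as a description, since they chose the nuclei. Slc12a1 was present in 307 of 307 sham nuclei and 266 of 266 nephrectomy nuclei, at 15499.7 and 15368 CPM (UMIs of the gene per 1000000 UMIs of the summed nuclei). Sgcz was at 2716 and 3252 CPM and Cacnb4 at 3219.5 and 3029 CPM, while Enox1 was at 124 and 160.5 CPM and Nrxn3 at 34.1 and 57.1 CPM. Umod was at 3115 CPM in sham and 2143 CPM in nephrectomy, and Erbb4 at 9371 and 11507 CPM. The proximal tubule genes Slc13a1 and Slc5a12 were at 20.4 and 26.5 CPM in sham and at 57.1 and 63.8 CPM in nephrectomy, within the limit that the rule set. Genes of the segment that the rule did not use were present in both libraries. Kcnj1 had UMIs in 255 sham and 236 nephrectomy nuclei, and Egf in 281 and 252. The choice was close for few nuclei: 19 sham and 14 nephrectomy nuclei were inside by 1 or 2 UMIs, and 5 and 7 were on the other side by as many. The limit on proximal tubule genes alone kept out 67 sham and 65 nephrectomy barcodes.

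Depth and free RNA, the RNA of broken cells that is captured with every nucleus, differed between the libraries. The median was 6114 UMIs per nucleus in sham and 7281 in nephrectomy, from 1965205 and 2243112 UMIs in all. Mitochondrial genes made up a median of 1.01% and 0.660% of a nucleus's UMIs. The proximal tubule gene Kap had UMIs in 307 of 307 sham nuclei, at 2999.7 CPM, and in 240 of 266 nephrectomy nuclei, at 562 CPM. Over 20 proximal tubule genes, the level in these nuclei was 28.3% of that in the whole sham library and 23.3% in the nephrectomy library. Without Kap these values were 16.4% and 20.1%. Scrublet called 1 sham and 0 nephrectomy nuclei of the 573 as doublets, which is too few for its calls to be used. The libraries shared 2 barcodes, of which 1 was among these nuclei.

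The Sgcz side held most of the thick ascending limb in both libraries, with a slightly smaller share in nephrectomy that was within counting error. It was 307 of 378 nuclei in sham, or 81.2% (76.9 to 85.0%), and 266 of 341 in nephrectomy, or 78.0% (73.2 to 82.3%). The difference of -3.21 percentage points had a Newcombe interval from -9.14 to 2.67 that included 0. The interval no longer included 0 with at least 2000 UMIs per nucleus, at -5.97 points (-11.8 to -0.119), or with Umod left out of the score, at -5.98 points (-11.8 to -0.216). The Enox1 side was 44 of 378 sham nuclei, or 11.6% (8.59 to 15.3%), and 64 of 341 nephrectomy nuclei, or 18.8% (14.8 to 23.3%), a difference of 7.13 points (1.88 to 12.4) whose interval did not include 0. Nuclei with equal sums made up the rest, 27 and 11, a difference of -3.92 points (-7.28 to -0.627). The median depth of those was 1889 UMIs in sham and 5934 in nephrectomy. Among all nuclei kept, the Sgcz side was 11.6% of 2655 in sham and 9.15% of 2908 in nephrectomy, a difference of -2.42 points (-4.03 to -0.815).

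Of 6584 genes with at least 100 UMIs, 355 were at least 1.5-fold higher in nephrectomy, or 5.39%, and 468 were at least 1.5-fold lower, or 7.11%. The median log2 ratio of these genes was 0.02. Of the 11686 genes with at least 20 UMIs, the minimum used for the gene lists below, 10.4% were at least 1.5-fold higher and 11.7% at least 1.5-fold lower. These 2 shares are the background for counts of list members in nephrectomy against sham among Sgcz-side nuclei. On the Enox1 side 1203 of 7258 genes with as many UMIs were at least 1.5-fold higher and 1034 lower. In kept nuclei outside the thick ascending limb 1690 of 17258 were higher and 1857 lower. The 12 genes of the rule are left out of the counts of list members.

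Short genes tended to be lower in nephrectomy and long genes higher. The median log2 ratio was -0.53 for 340 genes under 5 kb, -0.21 for 1357 genes of 5 to 20 kb, 0.01 for 2093 genes of 20 to 50 kb, 0.10 for 1977 genes of 50 to 150 kb and 0.19 for 805 genes over 150 kb. The shortest class includes mitochondrially encoded genes, and the genes of the rule are left out. Of the shortest genes, 41.8% were at least 1.5-fold lower and 0.882% at least 1.5-fold higher. The gradient was found outside these nuclei as well. On the Enox1 side the median went from -0.47 to 0.31, and in all kept nuclei outside the thick ascending limb from -0.42 to 0.20. Genes under 20 kb other than mitochondrial ones gave a median of 29.8% of a nucleus's UMIs in sham and 26.2% in nephrectomy. Subtraction of the median of each length class, which sets every class median to 0, left 339 genes at least 1.5-fold higher and 250 lower. The upward part of the differences was then 57.6%, against 43.1% without it, with fewer lower genes and about as many higher ones. The lower mitochondrial share in nephrectomy went with this gradient, and its part in it was not tested. Among nuclei with at most 1% mitochondrial UMIs, 4808 genes had enough UMIs, of which 258, or 5.37%, were at least 1.5-fold higher and 255, or 5.30%, lower.

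**Figure D1:**
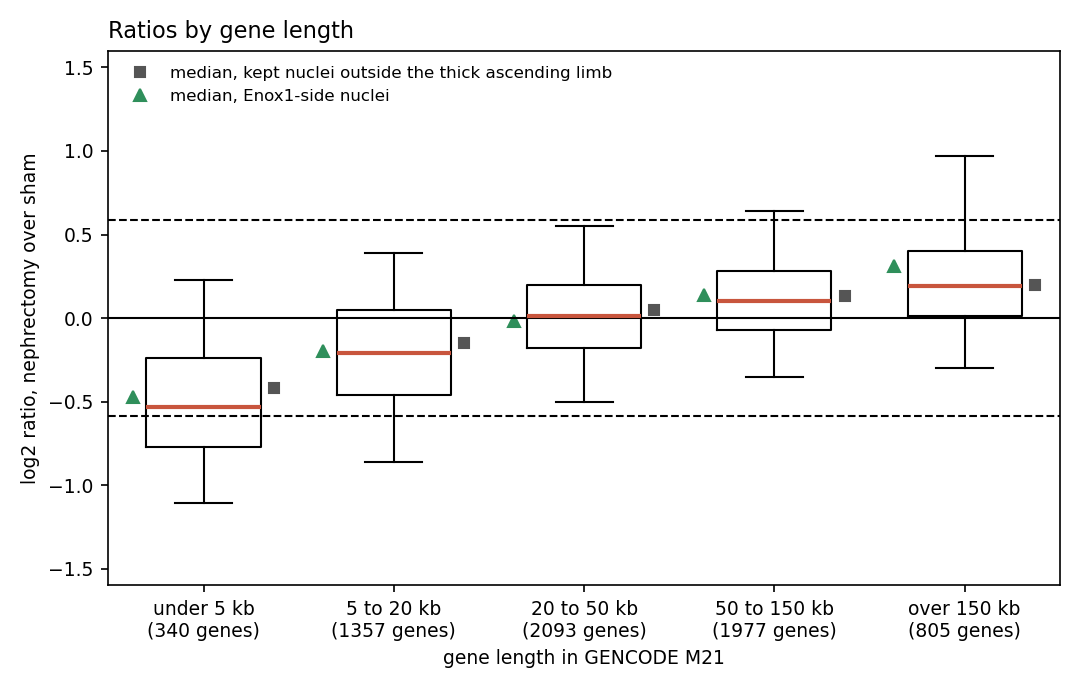
Log2 ratio of nephrectomy over sham in Sgcz-side nuclei (y axis) for genes with at least 100 UMIs, in 5 classes of gene length (x axis). Boxes give the quartiles and the median, whiskers the 5th and 95th percentile, dashed lines a 1.5-fold difference. The boxes leave out mitochondrially encoded genes, which the gene count printed for the shortest class includes. Triangles are class medians on the Enox1 side and squares those in kept nuclei outside the thick ascending limb; all 3 series go up from the shortest to the longest class.

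The salt transport machinery was close to its sham level, with accessory subunits of the sodium pump lower. Of 19 genes for sodium chloride transport, 0 were at least 1.5-fold higher and 1 lower, and their median log2 ratio was -0.05, against 0.00 for all 11686 genes. Kcnj1, the potassium channel ROMK, had 912 UMIs in sham and 1210 in nephrectomy, with a ratio of 1.16 (1.07 to 1.27). Bsnd, which encodes the chloride channel subunit barttin, had a ratio of 1.13 (0.793 to 1.61). Atp1b1, the beta subunit of the sodium pump, was at 2245 CPM in sham and 1790.4 CPM in nephrectomy. Its ratio was 0.797 (0.764 to 0.832), while Fxyd2, the gamma subunit, was at 0.668 (0.637 to 0.700). On the Enox1 side Atp1b1 was at 0.771 and Fxyd2 at 0.712. In kept nuclei outside the segment Atp1b1 was near 1, at 0.973, and Fxyd2 as low as here, at 0.660.

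Among the kinases and ubiquitin ligase parts that set cotransporter activity, 1 kinase gene was lower by 1.5-fold and the others differed less. Stk39, which encodes the kinase SPAK that phosphorylates NKCC2, had a ratio of 1.15 (1.08 to 1.23), and its regulators Wnk1 and Wnk4 0.905 (0.823 to 0.996) and 1.20 (1.07 to 1.34). The lower one was Oxsr1, the SPAK-related kinase OSR1, with 48 UMIs in sham and 24 in nephrectomy, a ratio of 0.438 (0.257 to 0.729). Klhl3 was at 1.15, Cul3 at 0.966, Cab39 at 1.06 and Nedd4l at 1.04. Sgk1, the aldosterone-induced kinase, had 31 and 51 UMIs, and its ratio of 1.44 had an interval from 0.905 to 2.33. The remaining members, Kcnj10, Kcnj16, Slc9a3, Slc12a7, Ppp1r1a and Kcnt1, lay between 0.872 and 1.21.

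The calcium-sensing receptor and the sodium-selective claudin were lower. Of 13 measured genes for divalent cations and claudins, 0 were at least 1.5-fold higher and 1 lower, with a median log2 ratio of -0.05. The lower one was Casr, which senses blood calcium and restrains transport in this segment, with 613 UMIs in 159 sham nuclei and 456 in 141 nephrectomy nuclei. Its level was 312 CPM in sham and 203 CPM in nephrectomy, a ratio of 0.652 (0.576 to 0.737). Cldn10, the claudin that forms the sodium pore, lay at 499 CPM in sham and 355 CPM in nephrectomy, a ratio of 0.711 (0.647 to 0.781). Cldn16 and Cldn19, whose products form the calcium and magnesium pore, had ratios of 0.969 (0.715 to 1.31) and 0.876 (0.696 to 1.10). Cldn8, with 31 and 26 UMIs, was at 0.735 (0.419 to 1.28), and Cldn3, Cldn4 and Cldn14 had fewer than 20 UMIs over both libraries. Egf lay at 4944 CPM in sham and 4808 CPM in nephrectomy, a ratio of 0.972 (0.946 to 1.00). Tmem207, a membrane protein gene, was higher, at 1.30 (1.18 to 1.42). The others, Cnnm2, Cnnm4, Trpm7, Tjp1, Ocln and Kctd1, lay between 0.853 and 1.17.

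**Figure D2:**
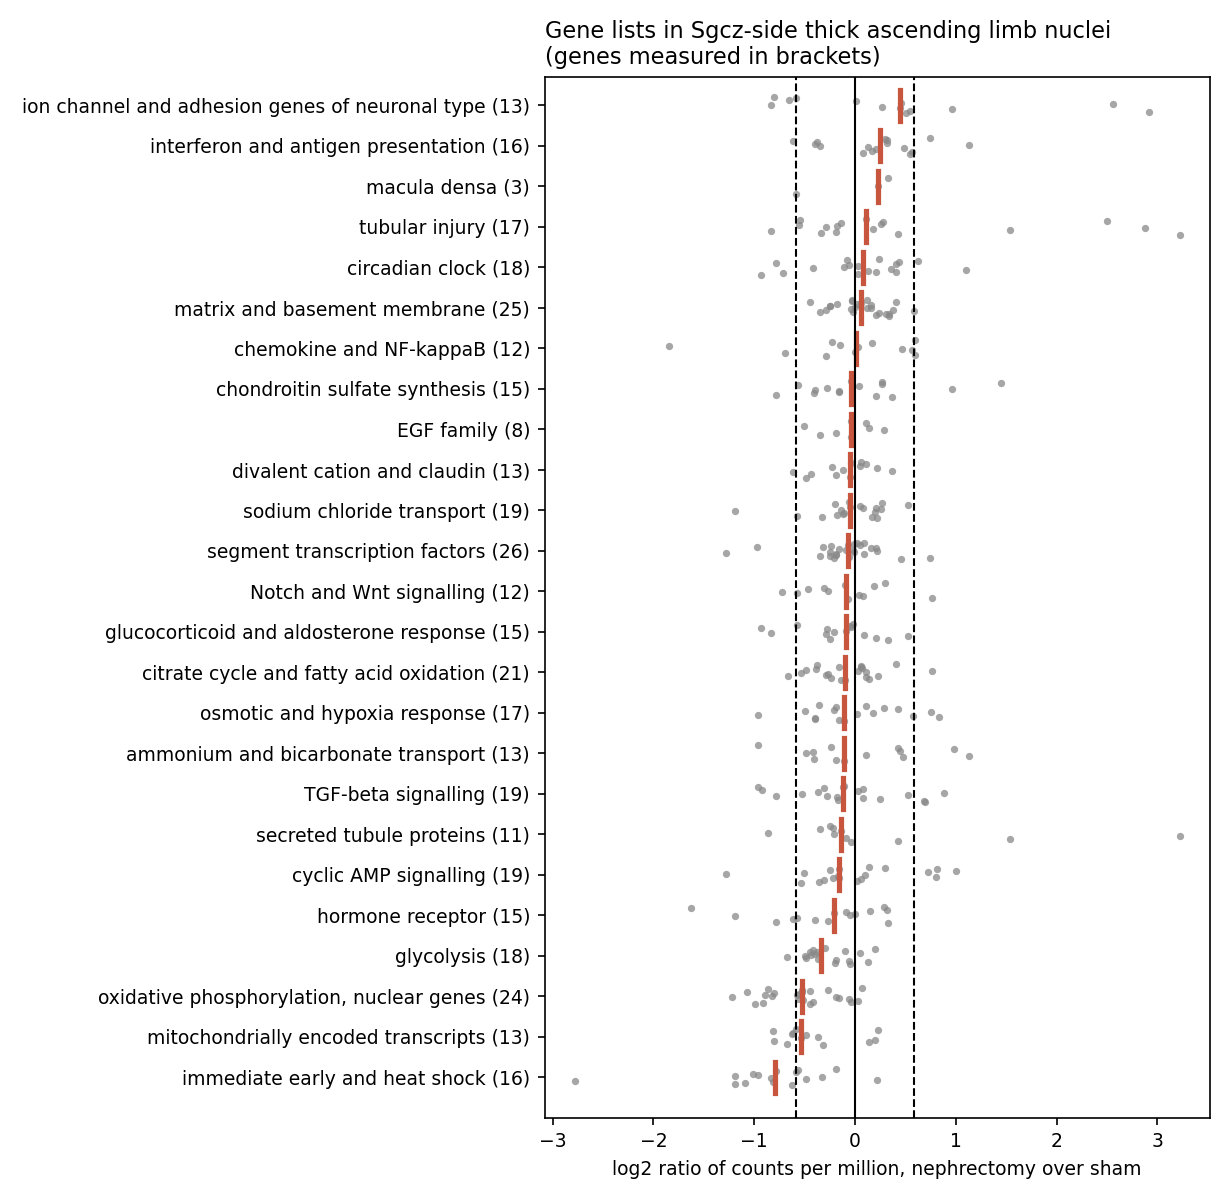
Log2 ratio of CPM, nephrectomy over sham (x axis), for each measured gene (grey points) of 25 gene lists (y axis), with the list median as a red bar; a gene with under 3 UMIs in a library is set at 3, and dashed lines mark a 1.5-fold difference. The medians go from -0.79 for immediate early and heat shock genes to 0.45 for channel and adhesion genes of neuronal type, with sodium chloride transport at -0.05.

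Receptors for hormones that act on the segment were mostly sparse. Of 15 measured, 0 were at least 1.5-fold higher and 4 lower, with a median log2 ratio of -0.21. The 4 lower ones were Casr, the vasopressin receptor Avpr2, the natriuretic peptide clearance receptor Npr3 and the endothelin receptor Ednrb. Avpr2 had 24 and 16 UMIs, and its ratio of 0.584 had an interval from 0.290 to 1.15. Npr3 had 19 and 7 UMIs and Ednrb 16 and 8, with ratios of 0.323 (0.115 to 0.802) and 0.438 (0.162 to 1.08). Npr3 turned to 1.27 among nuclei with at most 1% mitochondrial UMIs.

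The steroid and mineral receptors with more counts differed less. The mineralocorticoid receptor Nr3c2 was at 0.939 (0.862 to 1.02), the glucocorticoid receptor Nr3c1 at 0.863 (0.747 to 0.996) and the vitamin D receptor Vdr at 1.11 (0.886 to 1.39). The glucagon receptor Gcgr was at 0.757 (0.580 to 0.987), the parathyroid hormone receptor Pth1r at 0.827 (0.639 to 1.07) and the insulin receptor Insr at 1.00 (0.869 to 1.15). P2ry2, Adrb1, Agtr1a, Esr1 and Ptger4 had intervals that included 1, and Adora1, Calcr and Oxtr had fewer than 20 UMIs.

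Downstream of these receptors, the cyclic AMP phosphodiesterase gene Pde4d was higher. It had 1748 UMIs in 236 of 307 sham nuclei and 3987 UMIs in 248 of 266 nephrectomy nuclei. The level was 889 CPM in sham and 1777 CPM in nephrectomy, a ratio of 2.0 (1.89 to 2.12). Its ratio was 1.61 (1.44 to 1.80) on the Enox1 side and 1.20 in kept nuclei outside the segment. The quotient of the Sgcz-side and Enox1-side ratios was 1.24 (1.10 to 1.41, counting error only). Of 19 cyclic AMP genes, 4 were at least 1.5-fold higher and 1 lower, with a median log2 ratio of -0.16. These nuclei held less Pde4d than their whole libraries, which were at 3607 and 4452 CPM. Subtraction of the free RNA estimate, 28.3% of the whole sham library's level, took away more than the 889 CPM measured in sham. The sham count was then set to the minimum of 3, so the resulting ratio of 618 does not measure the difference. Without Kap the sham estimate was 16.4%, and the ratio at that value was not computed. The size of the difference thus depends on that correction. The other higher ones were Pde4b at 1.64 (1.30 to 2.09), the protein kinase A subunit Prkacb at 1.74 (1.36 to 2.25) and Pde10a at 1.75 (0.985 to 3.22). Gnas, which encodes the stimulatory G protein, and the adenylyl cyclase Adcy6 were at 0.809 (0.710 to 0.922) and 0.782 (0.661 to 0.923). The lower gene was Pde1c, at 0.411 (0.207 to 0.781) from 32 and 15 UMIs.

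Acid-base genes were 1.5-fold apart about as often as all genes, at 23.1% against 22.0%. Of 13 genes for ammonium and bicarbonate transport, 2, or 15.4%, were at least 1.5-fold higher and 1, or 7.69%, lower. Over all genes the shares were 10.4% and 11.7%. The median log2 ratio of the list was -0.11. Slc4a7, the sodium bicarbonate cotransporter NBCn1 of the basolateral membrane, had 175 UMIs in 100 sham nuclei and 436 in 141 nephrectomy nuclei. This was 89.0 CPM in sham against 194 CPM in nephrectomy, a ratio of 2.18 (1.83 to 2.62). On the Enox1 side the ratio was 0.930 (0.505 to 1.77), from 18 and 31 UMIs, and the quotient of the ratios was 2.35 (1.28 to 4.30). The other higher member was Car12, a membrane carbonic anhydrase, at 1.97 (1.34 to 2.94). The lower one was Rhcg, an ammonia channel of the collecting duct, at 0.513 (0.296 to 0.869) from 41 and 24 UMIs. Rhcg turned to 1.21 among nuclei of 4000 to 10000 UMIs.

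Among single genes with at least 100 UMIs over both libraries, 76 were at least 2-fold higher and 72 at least 2-fold lower. Of these, 32 and 34 were kept for naming, with the level in the library where they were higher no lower than in that whole library, and without predicted, mitochondrial or rule genes. A sparse gene reaches both limits through the library where it is high, so these ratios are a description. The 12 highest and 12 lowest are named here. Ranbp3l, which encodes a nuclear export factor for SMAD proteins, was the best counted of the higher ones. It had 442 UMIs in 148 of 307 sham nuclei and 1220 in 183 of 266 nephrectomy nuclei, which was 225 CPM (204 to 247) and 544 CPM (514 to 575). The ratio was 2.42 (2.17 to 2.70). With every nucleus thinned to 1000 UMIs, 13.0% of sham nuclei and 34.2% of nephrectomy nuclei held a UMI. Before thinning the shares were 48.2% and 68.8%, against 43.5% and 46.3% in kept nuclei outside the segment. On the Enox1 side the ratio was 1.14 (0.825 to 1.58), and outside the segment it was 1.07. The quotient of the Sgcz-side and Enox1-side ratios was 2.13 (1.53 to 2.96, counting error only). The gene lies on chromosome 15 from 8967949 to 9067335 in GRCm38 (mm10), on the plus strand.

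The next 8 genes had ratios between 2.43 and 2.73, and all of them were longer than 150 kb, the class with the highest median. Cep112 and Cep128 encode centrosome proteins, Dnah12 an axonemal dynein heavy chain, Rad51b a recombination protein, Plch1 a phospholipase C and Eda the ligand ectodysplasin A. Cnbd1 and Naaladl2 complete the group. Dnah12 had 97 UMIs in 53 sham nuclei and 286 in 112 nephrectomy nuclei, a ratio of 2.58 (2.04 to 3.29). All 8 were also higher in kept nuclei outside the segment, by 1.25-fold for Naaladl2 to 2.32-fold for Rad51b, and on the Enox1 side, by 1.51-fold for Cep112 to 5.13-fold for Rad51b. On the Enox1 side the intervals of Cep112 and Cnbd1 included 1, and that of Rad51b, from 2 and 19 UMIs, went from 1.24 to 45.4. Among nuclei of 4000 to 10000 UMIs the ratio of Eda was 1.48 and that of Cep128 1.69, and at 1000 UMIs per nucleus that of Cnbd1 was 1.06.

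**Figure D3:**
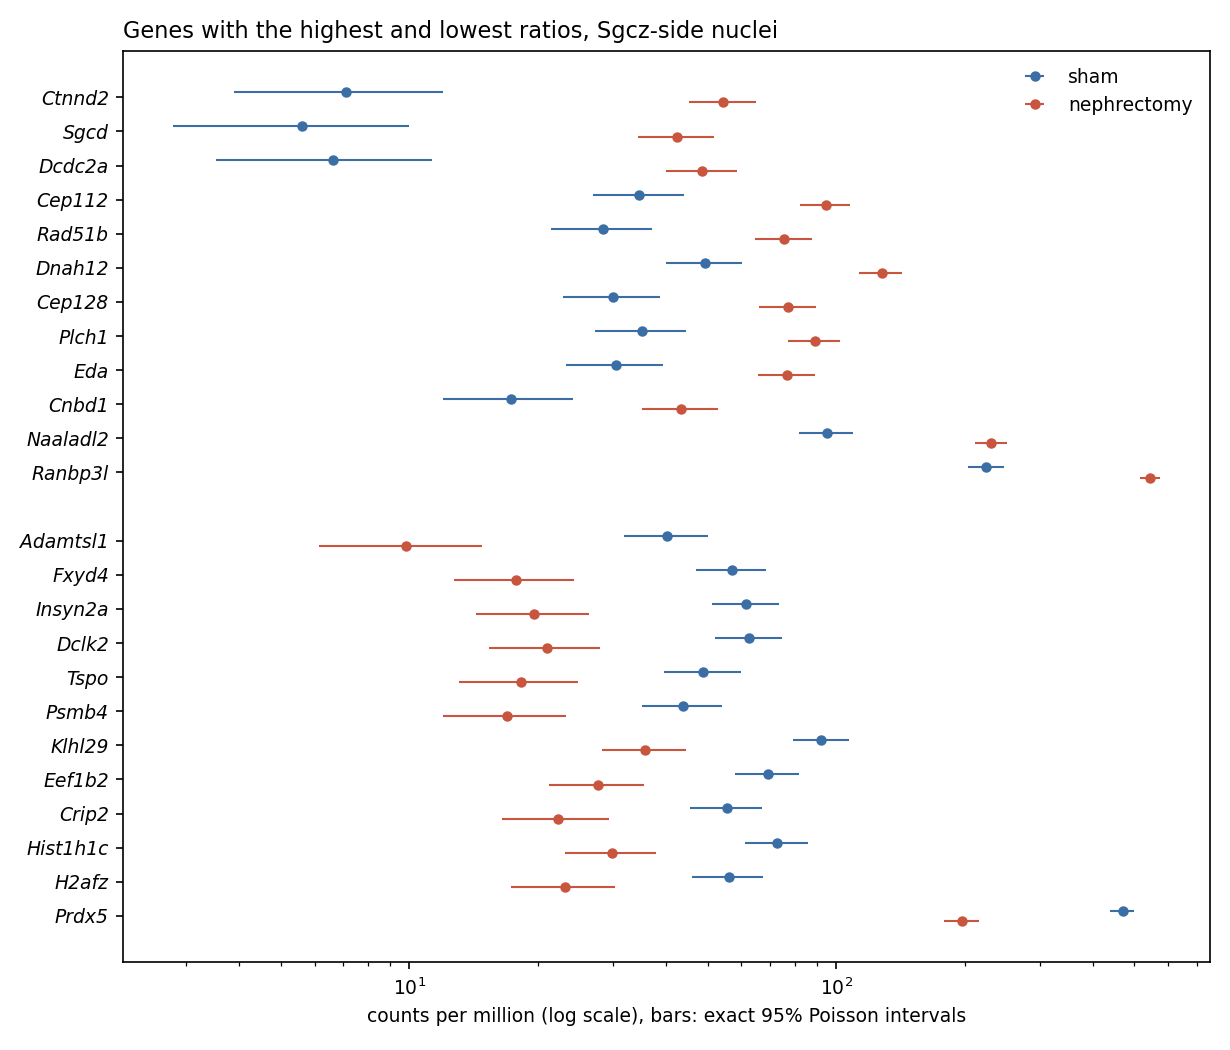
CPM (x axis, log scale) in Sgcz-side nuclei of the sham (blue) and nephrectomy (red) library for the 12 genes with the highest and the 12 with the lowest ratios (y axis), with exact 95% Poisson intervals. The widest gaps are those of Ctnnd2, Sgcd and Dcdc2a, whose sham levels are between 5.60 and 7.12 CPM.

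The 3 highest ratios came from genes that were found in few nuclei. Ctnnd2, which encodes the adhesion protein delta-catenin, had 14 UMIs in 6 sham nuclei and 122 in 22 nephrectomy nuclei, a ratio of 7.63 (4.38 to 14.4). Sgcd, the sarcoglycan delta gene, had 11 UMIs in 7 nuclei and 95 in 28, a ratio of 7.57 (4.04 to 15.7). Dcdc2a, which encodes a microtubule-binding doublecortin-domain protein, had 13 UMIs in 8 nuclei and 109 in 28, a ratio of 7.35 (4.12 to 14.2). At 1000 UMIs per nucleus the ratio of Ctnnd2 was 3.08 and that of Dcdc2a 3.46, and Sgcd was at 3.82 among nuclei with at most 1% mitochondrial UMIs. In nephrectomy the 5 nuclei with the most UMIs held 70.5%, 55.8% and 67.9% of the UMIs of the 3 genes. No sham nucleus held 5 or more UMIs of any of them, and 7, 4 and 4 nephrectomy nuclei did. In kept nuclei outside the segment, with median depths of 6319 and 7960 UMIs, Ctnnd2 was detected in 0.966% of nuclei in sham and 2.42% in nephrectomy, against 1.95% and 8.27% here. Sgcd was detected outside the segment in 5.58% and 8.49% of nuclei, against 2.28% and 10.5% here, and Dcdc2a in 10.8% and 13.6%, against 2.61% and 10.5% here. The ratio outside the segment was 3.97 for Ctnnd2, 2.09 for Sgcd and 1.58 for Dcdc2a. Ctnnd2 lies on chromosome 15 from 30172593 to 31029341, Sgcd on chromosome 11 from 46896253 to 47988969 and Dcdc2a on chromosome 13 from 25056004 to 25210706.

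Some nephrectomy nuclei held several of the 3 genes. UMIs of at least 1 of them were in 21 of 307 sham nuclei, or 6.84%, and in 57 of 266 nephrectomy nuclei, or 21.4%. UMIs of 2 or 3 of them were in 0 of 307 sham nuclei, where 3 nuclei, or 0.977%, is the limit that a count of 0 allows, and in 14 nephrectomy nuclei, or 5.26%. The sham nuclei were shallower. With every nucleus thinned to 1000 UMIs, 0 sham and 4 nephrectomy nuclei held 2 or 3 of the genes, and among nuclei of 4000 to 10000 UMIs 0 of 214 and 8 of 169 did. The 3 genes were picked for their nephrectomy values, so these counts are a description. Of those 14 nuclei, 7 held all 3 genes. Their median depth was 9628 UMIs against 7228 in the other 252, and 2 of the 14 were among the 3% of barcodes with the highest doublet scores.

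Since the 14 nuclei were picked for these genes after their values were seen, what follows is a description. Of the 4 genes in the score of the rule, Slc12a1 and Ptger3 were lower in them, and the intervals of Umod and Erbb4 overlapped. Slc12a1 was at 8930 CPM (8505 to 9371) in the 14 nuclei and at 15947 CPM (15775 to 16120) in the other 252, against 15499.7 CPM in sham. Egf was at 1453 CPM (1285 to 1638) and 5110 CPM (5013 to 5208). Ptger3, the prostaglandin E2 receptor, was at 443 and 1246 CPM, and the mitochondrial coactivator Ppargc1a at 1199 and 1932 CPM. Umod was at 2037 and 2153 CPM and Erbb4 at 11685 and 11491 CPM. The intervals of Kcnj1, at 448 and 548 CPM, overlapped as well. Of 24 genes of the tubular injury list other than Dcdc2a, 9 had intervals wholly above those of the other 252 nuclei, 0 below and 15 overlapping. The same count was not made over all genes, and the intervals leave out the spread between nuclei. Whether the list stands out from other genes was thus not tested. The secreted phosphoprotein gene Spp1 was at 1972 CPM (1775 to 2185) against 529 CPM (498 to 561), the ceruloplasmin gene Cp at 405 against 19.9 CPM, and the chaperone clusterin, Clu, at 178 against 14.6 CPM. The Cp level rested on few nuclei: its 75 UMIs lay in 6 of the 14, and 52 of them in 1 nucleus. Clu UMIs lay in 9 of the 14 and Spp1 UMIs in 13. Krt7, at 48.6 and 53.0 CPM, and Prom1, at 265 and 223 CPM, had overlapping intervals, and Havcr1, Vcam1, Cd44 and Sox9 had 0 UMIs in the 14 nuclei. Markers of other cell types were not uniformly higher in the 14 nuclei. The 10 proximal tubule markers summed to 2566 CPM against 1201, and the 8 of podocytes and parietal cells to 135 against 37.9. Thin limb, endothelial, leukocyte, fibroblast, distal convoluted tubule, principal and intercalated cell markers had overlapping intervals. The part of RNA from other cells in these values was not tested.

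**Figure D4:**
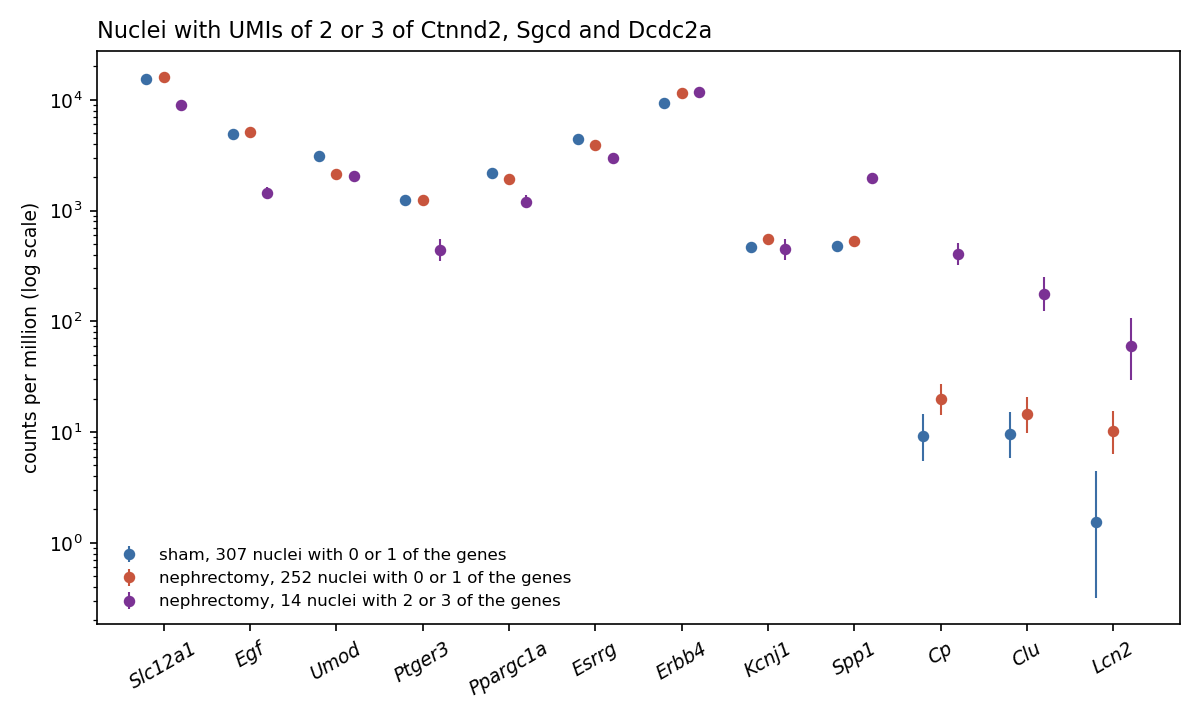
CPM (y axis, log scale) of 12 genes (x axis) in the 307 sham nuclei, none of which held 2 or 3 of Ctnnd2, Sgcd and Dcdc2a (blue), in the 252 nephrectomy nuclei with 0 or 1 of them (red) and in the 14 with 2 or 3 (purple), with exact 95% Poisson intervals. Slc12a1, Egf and Ptger3 sit lowest, and Spp1, Cp, Clu and Lcn2 highest, in the 14 nuclei. Of the 75 Cp UMIs of the 14 nuclei, 52 lay in 1 nucleus.

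A few sparse genes of the tubular injury list were higher. Of 17 measured members, 4, or 23.5%, were at least 1.5-fold higher and 1 lower, beside 10.4% and 11.7% of all genes, with a median log2 ratio of 0.11. Among Enox1-side nuclei 5 of 11 were higher and 0 lower, with a median of 0.37, and outside the segment 9 of 24 were higher and 1 lower, with a median of 0.36. The higher ones were Lcn2, which encodes neutrophil gelatinase-associated lipocalin, with 3 UMIs in 3 sham nuclei and 32 in 20 nephrectomy nuclei, and Dcdc2a, Cp and Clu. Lcn2 had a ratio of 9.35 (2.92 to 47.7), which was 1.92 with nuclei thinned to 1000 UMIs. It was detected in 0.264% of sham and 2.10% of nephrectomy nuclei outside the segment, against 0.977% and 7.52% here. Cp, named after its values were seen, was at 5.65 (3.42 to 9.86), and 5 nephrectomy nuclei held 81.9% of its UMIs. Nuclei with a Cp UMI were 4.56% in sham and 6.02% in nephrectomy here, below the 12.9% and 15.7% outside the segment. Clu was at 2.90 (1.72 to 5.14), with 1.74 among nuclei of at most 1% mitochondrial UMIs and 11.1 after subtraction of the free RNA estimate. Spp1 was at 1.35 (1.24 to 1.46). The share of nuclei with a Clu UMI, 5.54% in sham and 12% in nephrectomy, was below that outside the segment, 13.9% and 17.6%. Itgb6, the integrin beta-6 gene, was lower in nephrectomy but short of 1.5-fold, at 0.677 (0.605 to 0.757), and Krt7 and Krt8 were at 0.789 and 0.876 with intervals that included 1. The member lower by 1.5-fold was Cdkn1a, with 14 and 9 UMIs, whose interval from 0.215 to 1.40 included 1. Havcr1, Vcam1, Cd44 and Sox9, often used as marks of injured tubule, each had fewer than 20 UMIs over both libraries.

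Among the 12 lowest genes, most were short. Prdx5, which encodes a mitochondrial peroxiredoxin, had 921 UMIs in 268 sham nuclei and 442 in 189 nephrectomy nuclei. Its level was 469 CPM in sham and 197 CPM in nephrectomy, a ratio of 0.420 (0.375 to 0.471), and it was about as low on the Enox1 side, at 0.364, and outside the segment, at 0.444. Tspo, the translocator protein of the outer mitochondrial membrane, was at 0.374 (0.253 to 0.545), the proteasome subunit Psmb4 at 0.387, the elongation factor Eef1b2 at 0.399, Crip2 at 0.402 and the histone genes Hist1h1c and H2afz at 0.410 and 0.414. These 7 genes were each under 20 kb. The longer ones were Insyn2a at 0.319 (0.220 to 0.453), Dclk2, a doublecortin-like kinase gene, at 0.335 (0.234 to 0.472) and Klhl29 at 0.387 (0.294 to 0.506). Klhl29 was at 0.417 on the Enox1 side but at 1.5 outside the segment.

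For 2 of the lowest genes the counts lay in few nuclei. Adamtsl1 had 79 UMIs in sham and 22 in nephrectomy, a ratio of 0.244 (0.145 to 0.395), with 72 of the 79 in 5 nuclei, and the ratio turned to 1.88 among nuclei of 4000 to 10000 UMIs. Fxyd4, a sodium pump modulator of the collecting duct, had 112 and 40 UMIs, a ratio of 0.313 (0.212 to 0.453), with 79 of the 112 in 5 nuclei, and the ratio was 0.954 among nuclei of 4000 to 10000 UMIs. Fxyd4 is 1 of 7 principal cell markers, which summed to 151 CPM in sham and 67.3 CPM in nephrectomy nuclei. All 7 were detected in both, and 72 sham and 70 nephrectomy nuclei held a UMI of at least 1. The part of principal cell RNA in the ratio of Fxyd4 was not tested.

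Short nuclear genes of the respiratory chain were lower. Of 24 nuclear genes for oxidative phosphorylation, 0 were at least 1.5-fold higher and 8 lower, with a median log2 ratio of -0.53. Uqcrfs1, the Rieske protein of complex III, had 270 UMIs in sham and 132 in nephrectomy, a ratio of 0.428 (0.345 to 0.529), and Cycs, cytochrome c, 317 and 172, a ratio of 0.475 (0.393 to 0.574). The other 6 were Ndufa4, Ndufb9, Cox5a, Atp5o, Cox4i1 and Cox8a, between 0.502 and 0.575. The subunits Sdha, Ndufs1 and Ndufs4 stayed at 0.961, 0.974 and 1.02, with intervals that included 1. All 8 lower genes were among the 17 under 20 kb, whose median was -0.58, while 0 of the 7 longer ones differed by 1.5-fold and their median was -0.06. Over all genes the medians were -0.19 under 20 kb and 0.09 above, and 21.9% and 4.64% were at least 1.5-fold lower. With length classes centred the list's median was -0.30, and among nuclei with at most 1% mitochondrial UMIs it was -0.27. The 13 mitochondrially encoded transcripts are a description, since the rule capped their share of a nucleus's UMIs. Their median log2 ratio was -0.54, with 6 lower and 0 higher, and it was -0.12 among nuclei with at most 1% mitochondrial UMIs and -0.01 with length classes centred. The nuclear list was also lower on the Enox1 side, where 9 of 24 were lower and the median was -0.50, and outside the segment, where 7 of 24 were lower and it was -0.38.

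Immediate early and heat shock genes were the list with the lowest median, -0.79. Of 16 measured, 11 were at least 1.5-fold lower and 0 higher. The constitutive chaperone gene Hspa8 had 530 UMIs in 219 sham nuclei and 300 in 158 nephrectomy nuclei, a ratio of 0.496 (0.429 to 0.572), and Hsp90ab1 had 377 and 250, a ratio of 0.581 (0.493 to 0.683). Ier2, an immediate early gene, had 24 and 4 UMIs, a ratio of 0.146 (0.0368 to 0.425). Jun was at 0.438 (0.253 to 0.738), Junb at 0.469 (0.291 to 0.744) and Jund at 0.572 (0.452 to 0.721). Hspa1a and Hspa1b, near-identical copies whose reads can be split between them, were at 0.438 and 0.514 with few counts. Of the 16 genes 14 are under 20 kb, of which 10 were lower, beside 21.9% of all genes under 20 kb. With length classes centred the median of the list was -0.41. On the Enox1 side 5 of 9 were lower and 0 higher, and outside the segment 8 of 22 were lower and 4 higher.

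Transcription factors of the segment were close to sham. Of 26 measured, 1 was at least 1.5-fold higher and 2 lower, with a median log2 ratio of -0.07. Pax8, a nephron lineage factor, had 313 UMIs in 164 sham nuclei and 597 in 191 nephrectomy nuclei, a ratio of 1.67 (1.45 to 1.92), and 1.49 (1.09 to 2.07) on the Enox1 side. Pax2 was at 1.38, short of 1.5-fold. Bcl6, a repressor, counted 161 UMIs in sham and 94 in nephrectomy. Its ratio was 0.512 (0.392 to 0.664), and it was lower outside the segment too, at 0.407. The other lower one was Tfap2a, with 17 and 8 UMIs and an interval from 0.154 to 1.01.

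The genes named in the study's title gave little signal in these nuclei. Csgalnact1, which starts chondroitin sulfate chains, had 19 UMIs in 11 sham nuclei and 28 in 11 nephrectomy nuclei, a ratio of 1.29 (0.696 to 2.45). It was 4.14 among nuclei with at most 1% mitochondrial UMIs and 0.549 among nuclei of 4000 to 10000 UMIs. Vcan, which encodes the proteoglycan versican, had 2 UMIs in 2 sham nuclei and 15 in 8 nephrectomy nuclei, a ratio of 6.57 with an interval from 1.53 to 59.2. Of 15 chondroitin sulfate genes, 2 were at least 1.5-fold higher and 1 lower, and the higher ones, Dsel and B4galt7, had 33 UMIs or fewer over both libraries. Of 25 genes for matrix and basement membrane, 1 was higher and 0 lower, namely Lama1, a laminin chain gene, at 1.5 (1.12 to 2.03).

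The remaining lists are given by their counts, beside 22.0% of all genes at least 1.5-fold apart in either direction. Of 11 secreted tubule proteins 2 were at least 1.5-fold higher, Lcn2 and Clu, and 1 lower, the protease inhibitor gene Wfdc15b, which was at 0.550 (0.490 to 0.616) here and at 0.493 on the Enox1 side. Of 19 genes of TGF-beta signalling 3 were higher, Bmp6, Tgfbr1 and Tgfbr2, and 3 lower, Id3, Bmpr1b and Smad7, or 31.6% apart. Tgfbr1, a type I receptor, was at 1.62 (1.32 to 1.99), and Smad7, the inhibitory SMAD, at 0.580 (0.473 to 0.711). Of 18 clock genes 2 were higher, among them Cry1 at 2.15 (1.25 to 3.81), and 3 lower, among them Arntl at 0.526 (0.323 to 0.843). Glycolysis genes had a median log2 ratio of -0.34, with 1 of 18 lower, Gapdh, at 0.624 (0.534 to 0.728), which was 0.900 with length classes centred. Of 21 genes for the citrate cycle and fatty acid oxidation 1 was higher, Cpt2, and 1 lower, Suclg1. Of 17 osmotic and hypoxia genes 2 were higher, Hif3a and Slc6a6, and 1 lower, Hspa1b. None of 8 EGF family genes differed by 1.5-fold. Of 13 channel and adhesion genes of neuronal type 3 were higher and 4 lower, or 53.8% apart, a share that includes uncertain members. Among the higher ones, Csmd1 turned to 0.559 without the highest doublet scores. Cacna2d3 stayed above 1 but went from 7.59 to 1.92 with nuclei thinned to 1000 UMIs. Among the lower ones, Kcnd3 and Grm7, at 0.563 and 0.573, had intervals that included 1. The counts for glucocorticoid and aldosterone genes were 0 higher and 2 lower of 15, for Notch and Wnt genes 1 and 1 of 12, for chemokine and NF-kappaB genes 2 and 2 of 12, for interferon and antigen presentation genes 2 and 1 of 16, and for macula densa genes 0 and 1 of 3.

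The Sgcz and Enox1 sides stood apart in the same direction in both libraries for many genes outside the rule. The 4364 genes counted had at least 100 UMIs in each library over the 2 sides together. Of these, 317, or 7.26%, were at least 1.5-fold higher on the Sgcz side in both libraries. Lower in both by as much were 146, or 3.35%, and 5 went opposite ways. A gene could reach the minimum through 1 side alone. The Sgcz side held more UMIs, 1965205 against 375807 in sham and 2243112 against 695580 in nephrectomy. The part of this in the balance of higher and lower genes was not tested. The sides were split by 4 genes of the same nuclei, so these values are a description. Highest on the Sgcz side was Ano4, of the anoctamin family, with 503 UMIs in sham and 533 in nephrectomy against 1 and 5 on the Enox1 side. Gpc5, a glypican gene, was at 573 and 971 CPM against 21.3 and 34.5, and Kcnt1, a sodium-activated potassium channel gene, at 168 and 203 against 13.3 and 20.1. Pcsk6, a proprotein convertase gene, was at 601 and 449.8 CPM against 29.3 and 66.1. Rgs7, Scel, Elavl3, Filip1l, Egfl6 and Sned1 make up the rest of the 10 highest. Rgs7 and Scel had 288 and 184 UMIs on the Sgcz side in sham and 0 on the Enox1 side.

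Lowest on the Sgcz side were the phosphodiesterase gene Pde10a, at 9.67 and 16.9 CPM against 298 and 525 on the Enox1 side, and the guidance receptor Robo2, at 16.8 and 11.1 against 375 and 617. Lsamp, Col5a2, Sfrp1, Cadm2, Ier3, Car15, Thsd4 and Sec14l1 complete that set. The Enox1-side value of Lsamp rested on few nuclei: its 107 sham UMIs lay in 1 of 44 nuclei, and its 352 nephrectomy UMIs in 7.81% of 64. Robo2 is also on the macula densa list, named for the cells at the end of the limb that sense luminal chloride. All 4 measured members of that list were lower on the Sgcz side in both libraries, beside 3.92% of all genes with at least 20 UMIs in each library. Nos1 and Pappa2 reached that minimum only through the Enox1 side, so this count is a description. Nos1, the neuronal nitric oxide synthase, had 0 UMIs on the Sgcz side in either library, against 23 in sham and 66 in nephrectomy on the Enox1 side. Pappa2, a metalloprotease gene of the macula densa, had 1 and 5 UMIs against 25 and 70. These Enox1-side values rested on few nuclei. Nos1 UMIs lay in 9.09% of 44 sham and 9.38% of 64 nephrectomy nuclei, and those of Pappa2 in 4.55% and 10.9%.

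**Figure D5:**
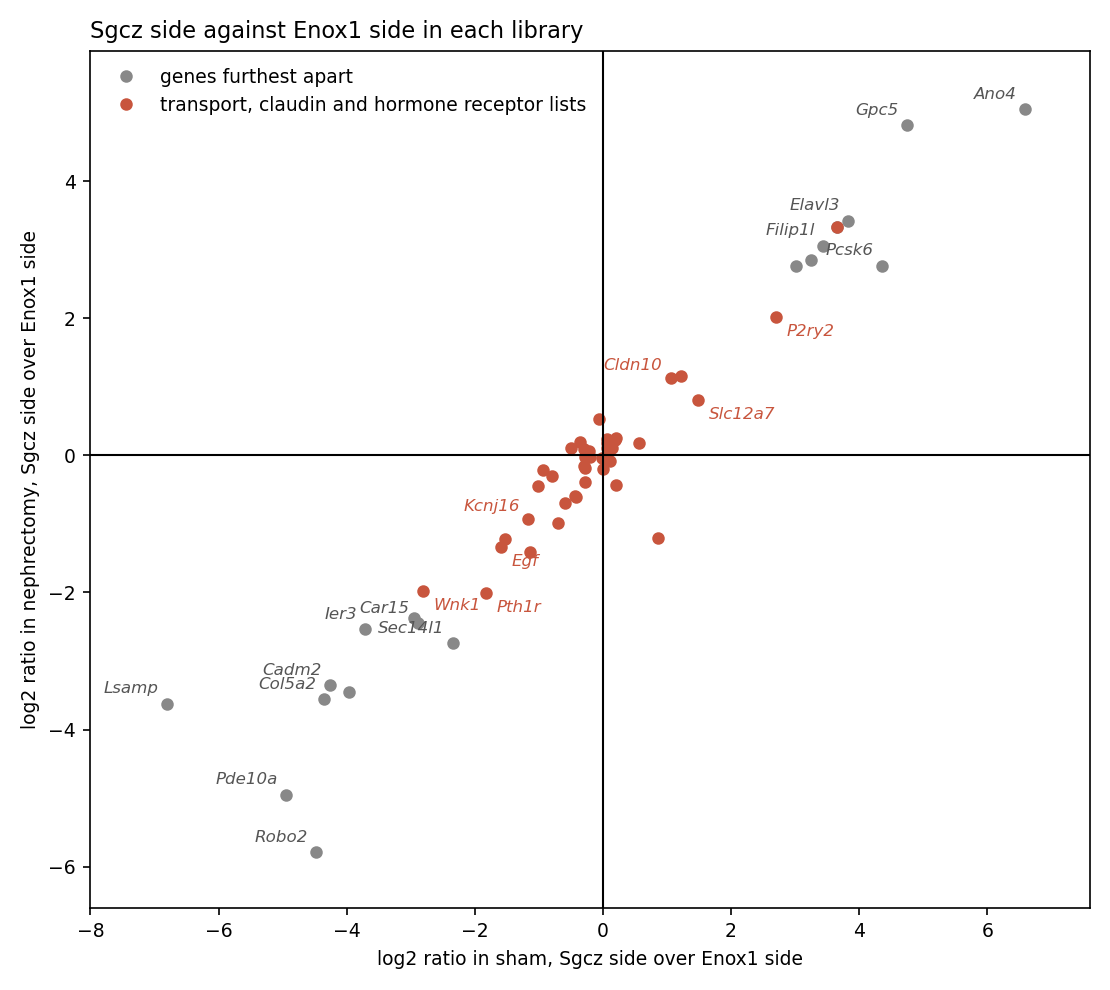
Log2 ratio of CPM, Sgcz side over Enox1 side, in sham (x axis) and nephrectomy (y axis), for 18 of the 20 genes furthest apart (grey) and for measured genes of the transport, claudin and hormone receptor lists (red; Kcnt1 is in both). Rgs7 and Scel, with 0 UMIs on the Enox1 side in sham, have no finite ratio and are not drawn. The grey genes were chosen as at least 2-fold apart the same way in both libraries. Their place in the lower left or upper right was set by that choice.

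Transport genes differed between the sides in both directions. Of 19 sodium chloride transport genes, 2 were higher and 4 lower on the Sgcz side in both libraries. The share over all 9805 genes with as many UMIs, at least 20 in each library, was 8.41% higher and 3.92% lower. Higher were Kcnt1 and Slc12a7, a potassium chloride cotransporter gene, the latter by 2.81-fold (1.32 to 7.17) in sham and 1.75-fold (1.08 to 2.98) in nephrectomy. Lower were the potassium channel Kcnj16, at 0.445 and 0.526, the kinase Wnk1, the ubiquitin ligase adaptor Klhl3, and Fxyd2. Wnk1 was at 0.142 (0.130 to 0.155) and 0.253 (0.231 to 0.277). Slc12a1 itself, a gene of the rule, was at 1.04 and 1.09. Among claudins, Cldn10 was higher on the Sgcz side, by 2.08-fold (1.68 to 2.62) and 2.18-fold (1.79 to 2.68), and Cldn16 was lower, at 0.346 (0.239 to 0.505) and 0.429 (0.310 to 0.595). Cldn19 was near 1, at 1.04 (0.695 to 1.62) and 1.13 (0.798 to 1.63). Egf was lower, at 0.331 (0.320 to 0.342) and 0.394 (0.383 to 0.405), as was the parathyroid hormone receptor Pth1r, at 0.283 and 0.248. Casr was at 0.617 in sham and 0.503 in nephrectomy. The pump subunit Atp1b1 was at 1.15 (1.06 to 1.24) and 1.19 (1.11 to 1.27).

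Markers of the distal convoluted and connecting tubule were lower on the Sgcz side too. Of 5 measured, 0 were higher and 3 lower in both libraries, with median log2 ratios of -1.16 in sham and -1.23 in nephrectomy. The 7 markers outside the rule summed to 626 CPM on the Sgcz side and 1426 CPM on the Enox1 side in sham, and to 649 and 1249 CPM in nephrectomy. Trpv5 had 0 UMIs on the Enox1 side in both. The 8 intercalated cell markers summed to 34.6 against 106 CPM in sham and 43.2 against 522 CPM in nephrectomy. Of these, Slc4a1 had 0 UMIs on the Enox1 side in both libraries and Kit in nephrectomy. The 7 principal cell markers went the other way, at 151 against 45.2 CPM and 67.3 against 30.2 CPM. The part of RNA of these cells in the lower values of Wnk1, Klhl3 and Egf was not tested.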

How the data were processed

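The deposited files are UMI counts per gene and barcode, filtered by the authors with Cell Ranger 7.1.0, per the submitters' processing notes (7.0.1 per the file headers), on mm10. The number of animals per library and the counting of introns are not given in the sources used here. Each of the 2 libraries holds 21365116 UMIs in 3084 barcodes (sham) or 28284727 UMIs in 3299 (nephrectomy). Counts were summed over the Sgcz-side nuclei of a library and divided by their sum (CPM), and a ratio is nephrectomy over sham. A difference was counted from 1.5-fold, over genes with at least 100 UMIs or, for lists, 20. For medians a count under 3 was set to 3. Of 32285 gene IDs, 32235 matched GENCODE M21, which gave positions and lengths.

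With 1 library per group there was no test; edgeR 4.0.16 served only for TMM factors, scipy 1.17.1 for intervals and scanpy 1.11.5 for doublet scores. The ratio script was checked on simulated counts. Named genes were the 12 highest and 12 lowest of at least 2-fold with 100 UMIs and a level at or above the whole library's, without predicted, mitochondrial or rule genes. Named too were the 10 highest and 10 lowest between sides, all transport, claudin and receptor genes, Csgalnact1, Vcan, and the 2 highest and 2 lowest of each other list. Further list members at 1.5-fold were named after their values were seen. The nuclei, lists and rules were chosen with earlier results of these data known. Some genes are not reported here, and the lists leave them out.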

Additional observations from a re-analysis of the deposited data

Results flagged for a closer look

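For 5 of 311 named or list genes with at least 20 UMIs on each side, or 1.61%, nephrectomy was at least 1.5-fold from sham in opposite directions on the 2 sides of the thick ascending limb. Over all 7221 such genes the count was 59, or 0.817%. These differences between the sides were not tested, since there was 1 library per group, and intervals cover counting error only. Car12, the membrane carbonic anhydrase, went from 40 to 90 UMIs on the Sgcz side and from 69 to 83 on the Enox1 side. The ratios of CPM were 1.97 and 0.650 and their quotient 3.03 (1.86 to 4.95), and the Sgcz-side ratio was 1.30 with nuclei thinned to 1000 UMIs. Birc3, an inhibitor of apoptosis, had ratios of 1.52 and 0.509 and a quotient of 2.99, with 1.20 on the Sgcz side among nuclei of at most 1% mitochondrial UMIs. Robo2 had 33 and 25 UMIs on the Sgcz side, a ratio of 0.664, against 1.64 on the Enox1 side, a quotient of 0.404. Its Sgcz-side ratio went from 0.289 to 1.38 over the alternatives and so lay on both sides of 1. For Robo1, a related guidance receptor, the ratios were 0.631 and 5.04 and the quotient 0.125, from 25 and 18 UMIs against 6 and 56. Bmpr1b, a BMP receptor, had 93 and 56 UMIs on the Sgcz side, with 48 of the 93 in 1 sham nucleus, and 1 and 76 on the Enox1 side, a quotient of 0.0128. The Sgcz-side ratio of Bmpr1b, 0.528, also lay on both sides of 1 over the alternatives. It was 1.42 without the highest doublet scores and 4.08 among nuclei of 4000 to 10000 UMIs.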

How the results depend on the processing

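No paired analysis was possible because there was 1 library per group. Of the alternatives, gene length centring, a mitochondrial maximum of 1% and a depth window of 4000 to 10000 UMIs were chosen after seeing the data. Counts of genes moved with the number of genes that reached the UMI minimum and with the free RNA correction. All values with free RNA subtracted used the estimates that include Kap. For Sgcz-side nuclei these were 28.3% in sham and 23.3% in nephrectomy, against 16.4% and 20.1% without Kap. No correction was run with the estimates without Kap. Against 355 higher genes there were 53 with nuclei thinned to 1000 UMIs, 671 with free RNA subtracted, 1213 at 20 UMIs per gene and 214 in the depth window. Against 468 lower genes there were 56 when thinned, 1362 at 20 UMIs, 250 with length centred, 255 at 1% mitochondrial UMIs and 299 in the depth window. At 1% mitochondrial UMIs 258 genes were higher. The 463 genes apart between the sides became 61, 713 and 1209 when thinned, with free RNA subtracted and at 20 UMIs. The cause of the shifts with free RNA, length and mitochondrial limit was not tested.

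The share of the Sgcz side differed by -5.98 to -1.89 points. Over the alternatives the median log2 ratio was -0.59 to -0.27 for oxidative phosphorylation, -0.86 to -0.38 for immediate early and heat shock genes and -0.12 to 0.15 for sodium chloride transport. The mitochondrially encoded transcripts went from -0.62 to -0.01. Ratios of Ranbp3l were 2.23 to 2.84, of Slc4a7 1.98 to 2.28, of Lcn2 1.92 to 13.5, of Clu 1.74 to 11.1, of Casr 0.587 to 0.720 and of Oxsr1 0.289 to 0.485.

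Of 64 named ratios of at least 1.5-fold whose interval did not include 1, 7 crossed 1 under an alternative. They were Adamtsl1 (1.88), Bmpr1b (4.08), Pde1c (1.61), Rhcg (1.21) and Slc6a6 (0.993) in the depth window, Bmpr1b (1.42) and Csmd1 (0.559) without the highest doublet scores, and Npr3 (1.27) at 1% mitochondrial UMIs. Of 18 whose interval included 1, 8 crossed it, among them Ednrb (1.70) and Robo2 (1.38) at 1% mitochondrial UMIs, and so did 40 of 72 ratios under 1.5-fold. The intervals of the receptors Avpr2, Ednrb, Adrb1, Agtr1a, Ptger4 and P2ry2, with 8 to 34 UMIs per library, included 1. At this depth a difference within those intervals could not be told from counting error.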
